A study of Homo sapiens with 16 samples.

Results

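The genes described here were read in HeyA8, an ovarian cancer cell line, and were almost silent in PC3, a prostate cancer cell line. They were chosen by their raw counts in mock-treated cells. A gene was taken when it lay on an autosome, had 200 or more counts in both mock HeyA8 libraries (24 and 48 h) and had 10 or fewer in both mock PC3 libraries. Symbols beginning with HOX, COL, LAM, ITG, KRT, HIST, ZNF, CXCL, IL, MT1, STAT or PTRF were skipped. This gave 104 genes out of 26485 rows of the count table, which is 1.22% of the 8537 unskipped autosomal genes that reached 200 counts in both mock HeyA8 libraries. The count cuts alone also took 13 autosomal genes whose symbols were skipped, 5 genes on X and 3 rows on alternate contigs.

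The series holds 16 RNA-seq libraries. Each line was mock-treated or transfected with siNT1 (a non-targeting siRNA), siGGGGGC or siCAG, and each condition gave 1 library at 24 h and 1 at 48 h, which served as its 2 replicates. The sample titles and the count columns call the siGGGGGC libraries siMxy, and they are taken as siGGGGGC from the treatment given in the labels, without a check by sequence. siGGGGGC carries GGGGGC as its 6mer seed, the stretch of the guide strand that pairs with GCCCCC in messenger RNAs, and G-rich seeds of this kind are known to be toxic to cancer cells. In bulk RNA a loss of cells that express a gene and less of its RNA per cell cannot be told apart. The labels name siCAG by its repeat without its sequence, give the dose as 1 nM for all siRNAs, and describe both lines as wild type. The labels do not name separate cultures, and the study's methods describe separate wells lysed at 24 and 48 h, so the p-values measure the spread between wells and time points of these transfections. The libraries held 27937092 to 31790209 counts, and 3 counts in 1 library are about 0.1 CPM (counts scaled by the library total).

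The labelled tissues were only partly visible in known markers. Mock HeyA8 held 4015 and 5623 counts (24 and 48 h) of PAX8, a transcription factor of Müllerian epithelium, and 698 and 825 of MSLN, a mesothelial surface protein, but 1 and 0 of MUC16 and 0 of WFDC2. Mock PC3 held 9233 and 15762 counts of HOXB13, a homeobox factor of prostate epithelium, while KLK2, KLK3 and KLK4, the secreted kallikreins of luminal prostate cells, were at 0 in both mock libraries. Among 20 luminal prostate markers looked up, 9 reached 200 counts in each mock PC3 library and 6 were at 0. In each mock HeyA8 library 5 reached 200 and 11 were at 0. SPDEF held 2129 and 3208 counts in mock PC3 and 1 and 2 in mock HeyA8. Others went the other way, such as KRT8 (7254 and 7008 in mock PC3, 18351 and 23519 in mock HeyA8) and KRT18 (8098 and 9782, 14584 and 22895). Among 27 ovarian and coelomic markers looked up, 6 reached 200 counts in each mock HeyA8 library and 4 in each mock PC3 library. Some of these were higher in PC3, such as NR2F1 with 3909 and 5503 counts in mock PC3 and 52 and 41 in mock HeyA8.

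As background, every cell type transcribes a core of shared genes and keeps a further part of its genome silent. Which genes belong to the silent part depends on the transcription factors present, on chromatin and DNA methylation, and in cancer lines also on losses or rearrangements of DNA. An RNA-seq library reads the outcome of all of these and does not separate them. No DNA, methylation or chromatin data were analysed here.

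The genes differed widely in how strongly HeyA8 read them. On a scale corrected for gene length (RPKM, counts per kilobase of merged exons scaled to library size), ECSCR, a cell surface protein known from endothelium, stood at 101.6 and 109.7 in the mock libraries. UCHL1, a ubiquitin hydrolase of neurons, stood at 92.4 and 97.8, and RAB5C, a small GTPase of early endosomes, at 62.1 and 58.9. The order depends on the gene length used. The merged exons of GENCODE give 1031 bases for ECSCR and 2207 for UCHL1, while the length column of the count table gives 2944 and 1124, with which UCHL1 would stand above ECSCR. The median of the 103 genes with a length was 4.38 RPKM, against 8.32 for all genes that met the HeyA8 cut, and 11 genes were under 1 RPKM, down to 0.306 for LINC01021, a long noncoding RNA.

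In raw counts of the mock HeyA8 libraries TIE1, a receptor tyrosine kinase that modulates angiopoietin signalling, was highest. Its counts in HeyA8 were 7938 and 8392 in mock, 9015 and 7029 with siNT1, 8930 and 8337 with siGGGGGC and 14625 and 12841 with siCAG. Its counts in PC3 were 8 and 1 in mock, 12 and 3 with siNT1, 23 and 29 with siGGGGGC and 11 and 11 with siCAG. All HeyA8 libraries were thus far above all PC3 libraries. TIE1 is usually a marker of endothelial cells. Of 12 endothelial markers looked up, 2 reached 200 counts in the mock HeyA8 library of 24 h and 3 in that of 48 h, with sums of 16652 and 16398 counts, most of them from TIE1 and from ENG (8461 and 7625), a co-receptor for TGF-β ligands. TEK (1 and 0), EMCN (1 and 0), PECAM1 (4 and 6) and VWF (7 and 11) were at or near 0 there, while CDH5 had 99 and 270 and ERG 118 and 69. In mock PC3 the same 12 genes summed to 1068 and 1373 counts, with KDR highest at 421 and 651. The part of other cell types in these counts was not tested.

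The next genes by HeyA8 counts had the same contrast. FAM167A, whose function is little known, held 4954 to 10800 counts over the 8 HeyA8 libraries and 0 to 64 over the 8 PC3 libraries. WNT5B, a secreted ligand of the Wnt family, held 5211 to 9488 in HeyA8 and 1 to 98 in PC3. UCHL1 held 6182 to 8109 in HeyA8 and never more than 2 in PC3. TNFRSF10D, a decoy receptor for the death ligand TRAIL, held 5587 to 18227 in HeyA8, with its highest count in the siGGGGGC library of 48 h, and 0 to 29 in PC3, with its highest count in the same condition. ADAMTSL1, a secreted matrix protein, TNS1, a focal adhesion protein, NRIP3, a nuclear receptor interacting protein, TSPAN14, a tetraspanin, SLC6A15, an amino acid transporter, RAB5C and ECSCR completed the 12 with the highest counts.

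**Figure D1:**
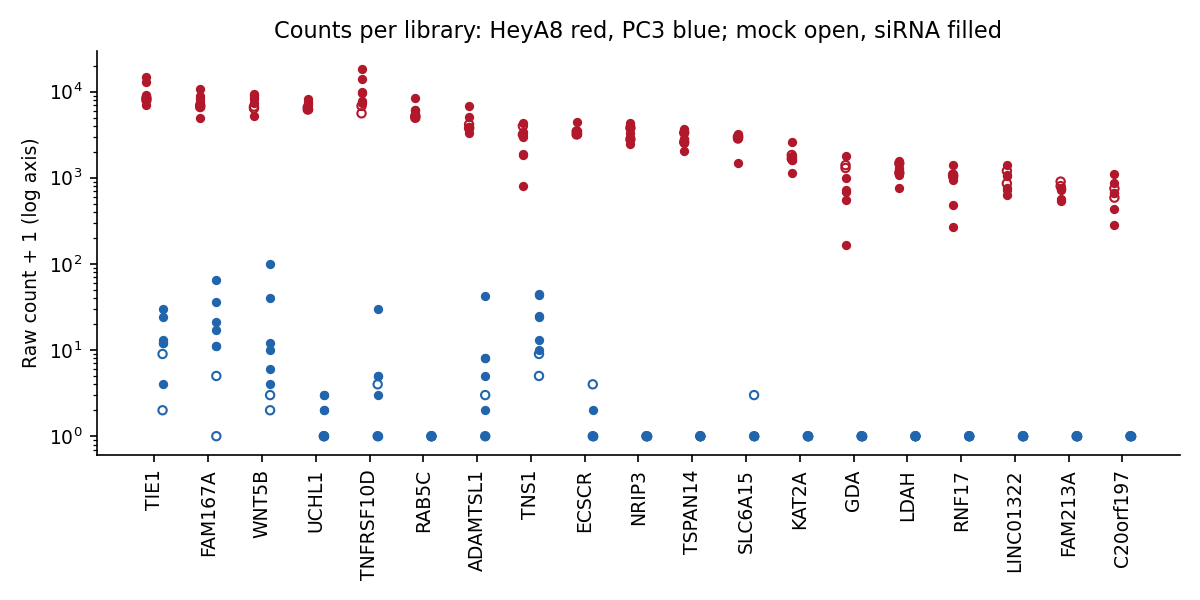
Raw count plus 1 on a log axis for the genes with the highest counts in mock HeyA8 and for the highest of those with no count in PC3 (horizontal axis: gene symbols; each point 1 library, HeyA8 red, PC3 blue, mock open, siRNA filled). For each plotted gene the 8 HeyA8 libraries lie above the 8 PC3 libraries, and RAB5C, NRIP3, TSPAN14 and KAT2A sit at 0 counts in all 8 PC3 libraries.

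Of the 104 genes, 21 had no count in any of the 8 PC3 libraries. The highest in HeyA8 were RAB5C, NRIP3, TSPAN14, KAT2A (a histone acetyltransferase), GDA (guanine deaminase), LDAH (a lipid droplet hydrolase), RNF17 (a germ cell tudor domain protein), LINC01322, FAM213A (a redox protein) and C20orf197. RAB5C held 5193 and 4956 counts in mock HeyA8, 6148 and 5118 with siNT1, 5371 and 5461 with siGGGGGC and 8400 and 6079 with siCAG, against 0 in each PC3 library. A total of 78 genes stayed at 10 or fewer counts in all 8 PC3 libraries.

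The 12 transfected libraries had no part in the choice of the genes. There 24 genes had no count in the 6 PC3 libraries, and the difference between the lines can only be given as a lower bound, with 3 counts over those 6 libraries together as the floor. RAB5C was at least 11318-fold higher in HeyA8, NRIP3 at least 6442-fold, TSPAN14 at least 5352-fold and KAT2A at least 3211-fold, and the lowest of the bounds was 311-fold for AJAP1, an adherens junction associated protein. These bounds cover counting error only. For genes with counts in PC3, the log2 fold change between the lines is given without a test, since the genes were chosen for this contrast. In a quasi-likelihood fit of edgeR, blocked on each pair of siRNA and time point, it was 9.73 (SE 0.462) for TIE1 and 9.10 (SE 0.659) for WNT5B. The 3 genes with over 10 counts in all 6 transfected PC3 libraries had 6.22 (SE 0.247) for TGFBI, a secreted matrix protein induced by TGF-β, 5.77 (SE 0.334) for TRABD2A and 3.96 (SE 0.270) for ACOT11. The lowest transfected HeyA8 count exceeded the highest transfected PC3 count for 103 of the 104 genes, while 12.9% of all genes that met the HeyA8 cut did so. Since the same lines had been used in the choice, this says only that the lines kept their order in the transfected libraries. The exception was FREM2, a basement membrane protein, with 2 counts in HeyA8 after siCAG at 48 h and 2 in PC3 after siGGGGGC at 48 h. The count cuts themselves were passed again by 81 of the 104 genes with siNT1, 62 with siGGGGGC and 67 with siCAG. Over all unskipped autosomal genes 87, 73 and 87 passed them there.

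The genes were grouped by lists of symbols. Secreted ligands, taken by symbol stem, held 6 of 57 genes that met the HeyA8 cut (10.5%, against 1.22% of all such genes). These were WNT5B, BMP2, DKK3, FGF12, NRG1 and TGFBI. NRG1, a ligand of ERBB receptors, held 545 and 412 counts in mock HeyA8 and none in any PC3 library. Receptors held 3 of 79 (3.80%), namely TNFRSF10D, TNFRSF11B (a decoy receptor for RANKL) and ADRBK2, which is a receptor kinase that the stem picked up. Adhesion molecules held 4 of 24 (16.7%), namely NCAM1, FLRT2 and the clustered protocadherins PCDHGC3 and PCDHGA10. The protocadherins share their 3′ exons and are not 2 independent genes. Channels and transporters held 6 of 226 (2.65%), among them SLC6A15, SLC2A3 (a glucose transporter), CACNA2D4 (a calcium channel subunit) and KCNQ5 (a potassium channel). Noncoding and antisense symbols held 9 of 88 (10.2%), among them LINC00958 and MIR155HG, the host transcript of miR-155. Developmental transcription factors held 1 of 68 (1.47%), FOXF2, a forkhead factor of mesenchyme, which was also the 1 of 12 mesenchymal transcription factors. The stems did not pick up every such gene. The ligand GDNF, the antisense symbol ZFPM2-AS1 and the developmental zinc finger factors ZIC2, ZIC5 and TSHZ3 are also among the 104. The matrix list held TGFBI as 1 of 25, and the endothelial list TIE1 as 1 of 2. None was held by the lists of contractile genes (0 of 10), ovarian epithelium (0 of 6), prostate epithelium (0 of 3), epithelial junctions (0 of 7), immune cells (0 of 1), tumour suppressors (0 of 17) and imprinted or cancer-testis genes (0 of 2), which are too short for a share of 1.22% to show. The lists were written with results of these data known, so these shares describe the genes and were not tested.

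The values near the cuts show where the rule ended. The lowest genes inside it were LINC01021 (239 and 201 counts in mock HeyA8), TRIM36 (242 and 203) and HRASLS (229 and 205), and just outside lay TMEM106A (197 and 194), CA2 (191 and 210) and USP32P2 (244 and 189). On the PC3 side RFX8 (10 and 10 counts), EVI2A (10 and 8) and LOC100506314 (5 and 10) were inside, and ADGRB1, LY6K and PHACTR1, each with 3 or 5 counts at 24 h and 11 at 48 h, were outside.

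Along the chromosomes, some of the genes lay side by side. Among the 8831 autosomal genes that reached 200 counts in both mock HeyA8 libraries, skipped symbols included, 17 of the 104 genes fell into 8 runs of neighbours. The longest run was on chromosome 17 (hg38), chr17:42113111-42522579, and held 7 genes. Its order was KAT2A, RAB5C, STAT5B, STAT5A, STAT3, PTRF and ATP6V0A1, where the STAT genes (transcription factors of cytokine signalling) and PTRF (a caveolar coat protein, also called cavin-1) passed the count cuts but were skipped by symbol. PTRF held 25088 and 24859 counts in mock HeyA8, STAT3 held 2510 and 2352, STAT5B 1495 and 1703 and STAT5A 354 and 445. All of them had 0 counts in all 8 PC3 libraries.

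In PC3 the silent stretch was unbroken. From DHX58 to PTRF, chr17:42101406-42423320, 11 consecutive rows over 321915 bases had no count in any PC3 library, and 6 of these 11 reached 200 counts in mock HeyA8. The others were DHX58 (25 and 35 counts in mock HeyA8), GHDC (162 and 199), HSPB9, KCNH4 and HCRT. On the left side the last strongly read gene was NKIRAS2, with 756 and 865 counts in mock PC3 and 941 and 974 in mock HeyA8. On the right side ATP6V0A1, a subunit of the vacuolar proton pump, had 20 counts over the 8 PC3 libraries against 800 and 979 in mock HeyA8 alone, and NAGLU, a lysosomal enzyme, was again read in PC3 (227 and 220).

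**Figure D2:**
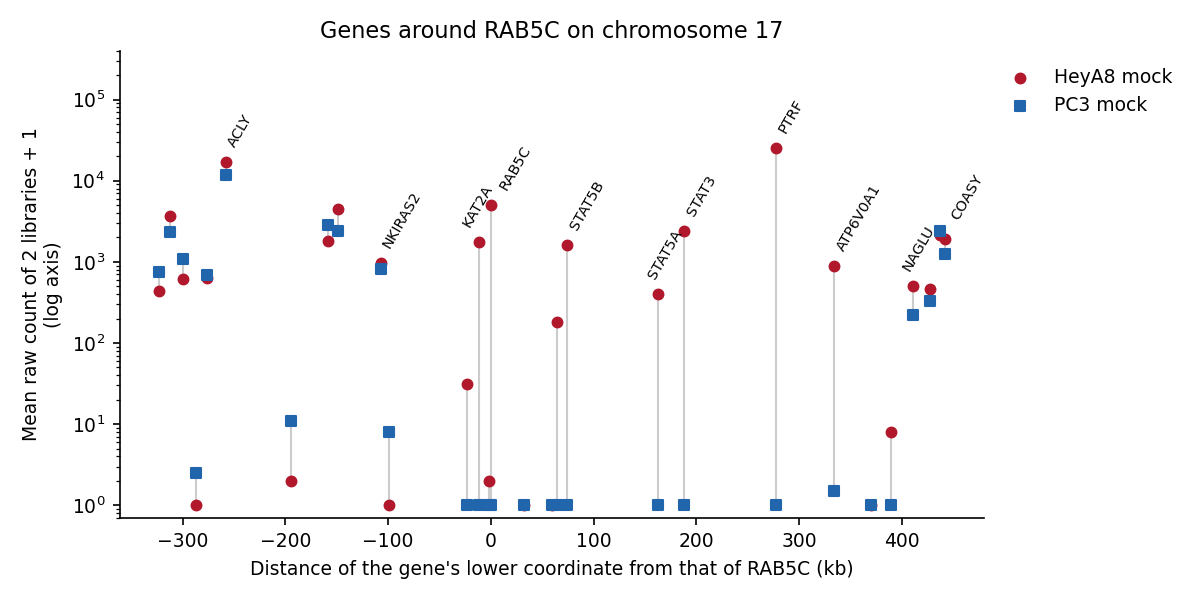
Mean raw count plus 1 of the 2 mock libraries of each line (log axis) for the rows around RAB5C on chromosome 17, placed by the distance of each gene's lower coordinate from that of RAB5C in kb (HeyA8 red circles, PC3 blue squares, a grey line joins the values of a gene). The PC3 points are at 0 counts from DHX58 to PTRF, and on both sides NKIRAS2, NAGLU and COASY are read in both lines.

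A second pair lay on chromosome 10, chr10:80407829-80522635. FAM213A held 798 and 901 counts in mock HeyA8 and TSPAN14 2582 and 3327, and both had none in PC3. They stood in a stretch of 8 consecutive rows over 374741 bases without a PC3 count, of which only these 2 reached 200 counts in mock HeyA8. On the left of the stretch LINC00857 was read at 1059 and 1084 counts in mock PC3. Another pair lay on chromosome 15, chr15:72241181-72376179, with PARP6, a mono-ADP-ribosyltransferase (514 and 661 in mock HeyA8, 0 in PC3), and HEXA, the alpha subunit of the lysosomal hexosaminidase (1545 and 1405 in mock HeyA8, 1 count in PC3 in all). PKM, the pyruvate kinase of glycolysis and the row on the left, held 78448 and 92934 counts in mock PC3. ARIH1, a ubiquitin ligase further to the right, held 1957 and 2201.

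The remaining runs were pairs. ZIC5 and ZIC2, zinc finger factors of neural development that are transcribed head to head, lay 9847 bases apart on chromosome 13, with 473 and 340 and 516 and 571 counts in mock HeyA8 and 6 and 19 counts in the 8 PC3 libraries together. CD163L1 and SLC2A3 on chromosome 12 lay 475042 bases apart with no other gene that met the HeyA8 cut between them. PCDHGA10 and PCDHGC3 on chromosome 5 share their 3′ exons, SLC5A10 and FAM83G on chromosome 17 overlap by 33680 bases on opposite strands, and GNGT2 and ABI3 overlap by 348 bases. The way reads were divided between overlapping genes was not stated, so these 3 pairs do not count as 2 independent genes each.

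Other silent genes stood alone. NRIP3 (3780 and 2780 counts in mock HeyA8) was the only row at 0 in its stretch. Its right-hand neighbour SCUBE2 was near 0 in both lines, while TMEM9B, further left, held 1731 and 1848 counts in mock PC3 and DENND5A, further right, 3006 and 2964.

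Sequences before the start of RAB5C, TSPAN14 and WNT5B are shown because RAB5C and TSPAN14 were at 0 in PC3 within silent stretches and WNT5B gave the highest PC3 count of all 104 genes. They are RefSeq promoter windows (GRCh38.p14, 5′ to 3′ on the strand of the gene), limited to the part before both the RefSeq start and the start in the count table, with each CG dinucleotide in capitals. RAB5C lies at chr17:42155045-42155239 on the minus strand, TSPAN14 at chr10:80454060-80454281 on the plus strand and WNT5B at chr12:1616806-1617055 on the plus strand.
RAB5C: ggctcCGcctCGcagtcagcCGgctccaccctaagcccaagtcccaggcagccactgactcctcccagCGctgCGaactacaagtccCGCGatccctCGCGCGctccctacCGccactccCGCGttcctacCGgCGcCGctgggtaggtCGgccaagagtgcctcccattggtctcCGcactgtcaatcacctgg
TSPAN14: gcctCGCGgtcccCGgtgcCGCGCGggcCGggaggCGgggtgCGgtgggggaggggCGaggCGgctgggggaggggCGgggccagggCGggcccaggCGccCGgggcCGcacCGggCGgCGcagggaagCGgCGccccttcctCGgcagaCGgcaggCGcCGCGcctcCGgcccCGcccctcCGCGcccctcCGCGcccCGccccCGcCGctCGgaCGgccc
WNT5B: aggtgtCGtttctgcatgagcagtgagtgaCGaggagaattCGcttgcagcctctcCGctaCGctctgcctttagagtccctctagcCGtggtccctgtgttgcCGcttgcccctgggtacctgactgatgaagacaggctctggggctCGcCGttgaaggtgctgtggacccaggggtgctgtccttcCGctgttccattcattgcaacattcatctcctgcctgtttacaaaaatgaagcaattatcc
The stretch of RAB5C holds 18 CG in 195 bases, that of TSPAN14 37 in 222 and that of WNT5B 10 in 250. At least 1 CG stands in 99.4% of the 250-base windows of the genes that met the HeyA8 cut, with a median of 22. A window was matched for 67 of the 104 genes (64.4%), so a comparison of CG content between these genes and all others is void.

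In PC3 the summed counts of the 104 genes were low in every library and differed between conditions. The sum was 241 and 236 counts in mock (24 and 48 h), 392 and 417 with siNT1, 495 and 761 with siGGGGGC and 520 and 542 with siCAG. In CPM this was 8.14 (95% Wilson interval 7.17 to 9.23) and 7.87 (6.93 to 8.94) in mock, 13.8 (12.5 to 15.3) and 14.8 (13.4 to 16.3) with siNT1, 16.8 (15.4 to 18.4) and 27.2 (25.4 to 29.2) with siGGGGGC, and 18.1 (16.6 to 19.8) and 19.1 (17.6 to 20.8) with siCAG. The mock sums are low by construction, since these 2 libraries were used in the choice, and transfected libraries cannot be compared with them. Among the transfected libraries the siGGGGGC library of 48 h stood highest and the siNT1 libraries lowest. The intervals cover counting error only, and no p-value was computed for a sum. In HeyA8 the same genes took 4031 to 6138 CPM, with the 2 siCAG libraries highest at 5512 and 6138.

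**Figure D3:**
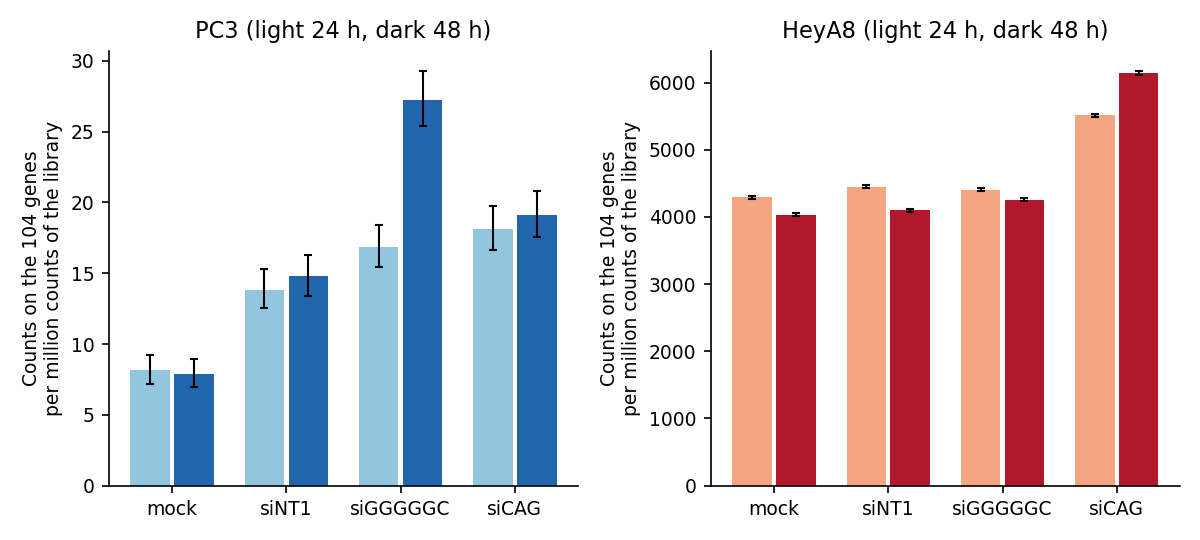
Summed counts of the 104 genes scaled by the total of each library (CPM) (vertical axes start at 0 and differ between the panels; light bars 24 h, dark bars 48 h; black bars are 95% Wilson intervals for counting error). In PC3 the sum runs from 7.87 CPM in mock at 48 h to 27.2 with siGGGGGC at 48 h, and in HeyA8 from 4031 to 6138 CPM.

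The PC3 sums rested on few genes. In all, 26 of the 104 genes exceeded 10 counts in at least 1 transfected PC3 library, and 3 did so in all 6, namely TGFBI, TRABD2A (a membrane protease acting on Wnt proteins) and ACOT11 (an acyl-CoA thioesterase). Only WNT5B, SV2A (a synaptic vesicle protein), TGFBI and FAM167A exceeded 50. WNT5B held 1 and 2 counts in mock PC3, 11 and 9 with siNT1, 39 and 98 with siGGGGGC and 3 and 5 with siCAG. Its 2 siGGGGGC libraries lay above all other PC3 libraries.

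TGFBI had another order in the transfected PC3 libraries. It held 6 and 6 counts in mock, where the rule required 10 or fewer, 31 and 31 with siNT1, 57 and 41 with siGGGGGC and 79 and 72 with siCAG, without overlap between the 3 siRNAs. SV2A held 91 counts in the siGGGGGC library of 48 h and 0 to 9 in the other 7. ADAMTSL1 likewise held 41 counts in that library and 0 to 7 in the others, and TSHZ3, a zinc finger factor, 41 against 6 to 17. FAM167A reached 64 with siCAG at 48 h but 10 with siCAG at 24 h, so its 2 replicates did not stand together. BMP2, a bone morphogenetic protein, had 37 and 33 counts with siCAG, 21 and 20 with siNT1, and 21 and 4 with siGGGGGC. TNFRSF11B had 34 and 24 counts with siCAG and 15 or fewer elsewhere. TNS1 had 23 and 44 counts with siNT1, 24 and 42 with siCAG and 12 and 9 with siGGGGGC, and TRABD2A had 18 to 42 in the transfected libraries and 8 and 9 in mock.

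**Figure D4:**
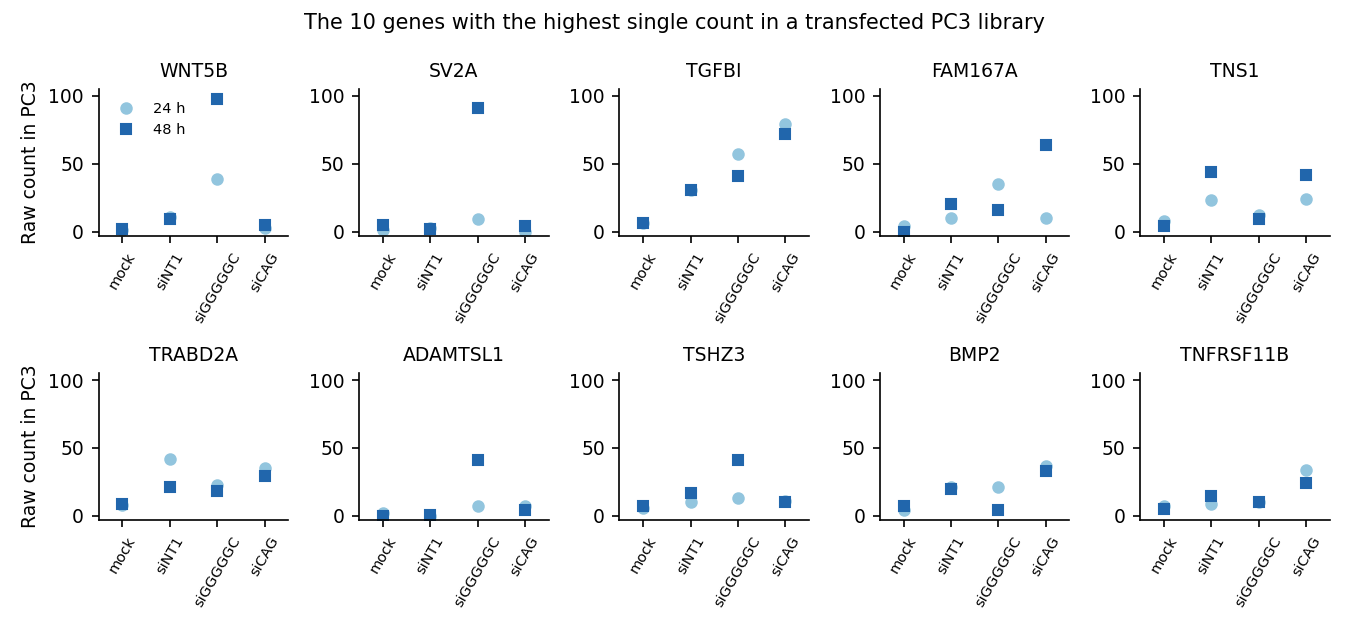
Raw counts in the 8 PC3 libraries for the 10 genes with the highest single count in a transfected library (one panel per gene; horizontal axis: condition; light circles 24 h, dark squares 48 h; the same vertical scale in all panels). WNT5B and SV2A are highest with siGGGGGC at 48 h (98 and 91 counts), and TGFBI is highest with siCAG (79 and 72). TRIM36 (34 counts with siGGGGGC at 48 h) tied with TNFRSF11B (34 with siCAG at 24 h) and is not among the 10.

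Against siNT1, 21 of the 104 genes had enough counts in PC3 to be tested (edgeR's filterByExpr), and 83 did not. With siGGGGGC 1 of these 21 was called higher and none lower at an adjusted p under 0.05, while 3.67% of all tested genes were called higher and 6.0% lower. The called gene was WNT5B, with a log2 fold change of 2.63 (SE 0.492, edgeR quasi-likelihood adjusted p = 0.0247). The spread behind this p came in part from the mock libraries, where the choice of genes had required low PC3 counts. The p is therefore not independent of that choice. WNT5B passed the filter through its siGGGGGC libraries, and in the fit without a filter it was called as well (adjusted p = 0.0119). Its call was lost without the mock libraries (adjusted p = 0.0606) and without either siNT1 library (0.0884 and 0.289) or the siGGGGGC library of 48 h (0.104), with log2 fold changes of 1.88 to 3.34. The next genes did not pass, with log2 fold changes of -1.63 (SE 0.549, adjusted p = 0.0901) for TNS1 and 1.87 (SE 0.724, adjusted p = 0.124) for TIE1. SV2A and ADAMTSL1 did not pass the filter. In a fit without it both were called (adjusted p = 0.0241 and 0.0435), on counts that came mostly from the 48 h library. The median over the 21 genes was 0.47 on the log2 scale and that over all tested genes 0.00. Low mock PC3 counts were part of the rule, so these 21 passed the filter mainly through transfected libraries in which they were higher. All tested genes were not held to that rule, so no conclusion is drawn from the difference between the medians. In the fit without a filter 83 of the 104 genes could be tested, with a median of 0.45. The 27 genes that could be tested without the siGGGGGC library of 48 h had a median of -0.04.

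With siCAG none of the 21 genes was called in PC3, while 0.0396% of all tested genes were called higher and 1.16% lower. An unadjusted p under 0.05 was found for 3 of the 21 and for 13.5% of all genes. DESeq2 called 0 of the 21, and of all genes 0.753% higher and 3.03% lower. TGFBI had a log2 fold change of 1.21 (SE 0.312, edgeR quasi-likelihood adjusted p = 0.154) and TNFRSF11B of 1.19 (SE 0.481, adjusted p = 0.342). When only the siCAG and siNT1 libraries were fitted, TGFBI alone passed (adjusted p = 0.0175), with 4.92% of all genes called higher.

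In HeyA8 all 104 genes could be tested. With siGGGGGC none was called by edgeR, which called 0.0% of all genes in either direction. An unadjusted p under 0.05 was found for 13 of the 104 and for 9.75% of all genes. DESeq2 called 4 lower, while it called 1.9% of all genes lower. The 4 were BMP2, BAIAP2L2, SHANK1 (a postsynaptic scaffold) and LINC00958. BMP2 held 382 and 954 counts with siNT1 and 123 and 88 with siGGGGGC, and 369 and 696 in mock, so that both siGGGGGC libraries were below all others. Its log2 fold change was -2.66 (SE 0.576, edgeR quasi-likelihood adjusted p = 0.243). SHANK1 held 1927 and 1525 counts with siNT1 and 833 and 719 with siGGGGGC (log2 fold change -1.21, SE 0.256, adjusted p = 0.241). BAIAP2L2 held 332 and 241 against 101 and 32. When only the siGGGGGC and siNT1 libraries were fitted, edgeR called 20 of the 104 genes, 4 higher and 16 lower, while 3.09% of all genes were called higher and 5.78% lower. The median log2 fold change over the 104 genes was -0.14 and that over all tested genes 0.00, with 67 genes below 0 and 37 above. It was -0.29 without the siGGGGGC library of 24 h and -0.04 without that of 48 h.

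The seed match GCCCCC of siGGGGGC was counted on the sense strand of the 3′ UTR of the canonical GENCODE transcript, which 92 of the 104 genes had. At least 1 match was found in 37 of them (40.2%), against 30.1% of the 8348 genes with a 3′ UTR that met the HeyA8 cut, whose median 3′ UTR was also shorter (1478 bases against 1714). PCDHGA10 and PCDHGC3 are both among the 37 through a match at the same genome position. The median HeyA8 log2 fold change with siGGGGGC was -0.20 for the 37 genes with a match and -0.11 for the 55 without, and over all genes that met the HeyA8 cut it was -0.13 with a match and 0.02 without. These medians are a description, and a match is not a site shown to be bound. The 24 bases around the first match with room on both sides are shown for 4 genes, with the match in capitals, chosen after their values were seen to show genes with several matches and unlike fold changes. Genome positions (hg38) are chr19:50661469-50661492 on the minus strand for SHANK1, chr22:38085013-38085036 on the minus strand for BAIAP2L2, chr17:42125748-42125771 on the minus strand for RAB5C and chr12:1793542-1793565 on the minus strand for CACNA2D4.
SHANK1: cacacagctGCCCCCctcagcctc
BAIAP2L2: ccacctcttGCCCCCtaacctctt
RAB5C: ctgcccgctGCCCCCgcctcctcc
CACNA2D4: agttgggtcGCCCCCaggccaacg
SHANK1 had 8 matches in a 3′ UTR of 2710 bases, RAB5C 4 in 804, CACNA2D4 3 in 1692 and BAIAP2L2 2 in 400. All 6 genes with 3 or more matches are given by their HeyA8 log2 fold change with siGGGGGC. It was -1.21 for SHANK1, -0.11 for RAB5C, -1.16 for AJAP1, -0.64 for FAM83G, 0.21 for ADRBK2 and 1.09 for CACNA2D4. In the edgeR fit over all 8 HeyA8 libraries none of them was called, while DESeq2 called SHANK1 lower. BAIAP2L2, with 2 matches, had -2.36 and BMP2, with none, -2.66.

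With siCAG 11 of the 104 HeyA8 genes were called, 4 higher and 7 lower, while 2.88% of all tested genes were called higher and 4.93% lower. FREM2 fell most. It held 233 and 262 counts in mock, 222 and 302 with siNT1, 349 and 558 with siGGGGGC and 6 and 2 with siCAG (log2 fold change -6.02, SE 0.521, edgeR quasi-likelihood adjusted p = 0.00437). The 2 siCAG libraries were far below the other 6, and the call held in each of the 11 alternative fits run for it.

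CAMK4, a calcium/calmodulin-dependent kinase, fell from 261 and 252 counts with siNT1 to 46 and 15 (log2 fold change -3.19, SE 0.461, adjusted p = 0.0167). RAB38, a small GTPase of pigment granules, fell from 277 and 332 to 120 and 56, AUTS2, a neuronal chromatin regulator, from 1026 and 972 to 484 and 236, and RNF17 from 1029 and 943 to 268 and 486. C8orf88 and TRABD2A were the other 2 that fell. PAPPA2, a protease that cleaves insulin-like growth factor binding proteins, rose from 197 and 161 counts with siNT1 to 1163 and 593 (log2 fold change 2.17, SE 0.315, adjusted p = 0.0169). CACNA2D4 rose from 719 and 497 to 2691 and 2945, LINC01021 from 177 and 156 to 559 and 874, and ATP6V0A1 from 821 and 889 to 1710 and 1996 (log2 fold change 1.06, SE 0.203, adjusted p = 0.0337). For each of these the siCAG libraries did not overlap with the siNT1 libraries. Most were named because they were called and changed the same way at both time points, so this lack of overlap is no further support. By list, 0 of the 6 ligands, 0 of the 3 receptors, 0 of the 4 adhesion genes, 1 of the 6 channels and transporters (CACNA2D4) and 1 of the 9 noncoding genes (LINC01021) were called, counts too small to set against the 2.88% and 4.93% of all genes.

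Apart from that of FREM2, these siCAG calls depended on the libraries fitted. Without the mock libraries, which the rule had used, 2 genes were called higher and 2 lower (1.67% of all genes). With only the siCAG and siNT1 libraries 4 were called higher and 4 lower (4.31% of all genes). Leaving out 1 library leaves 1 in its group, so the spread of the fits that follow comes from the other groups. Without the siNT1 library of 24 h or that of 48 h, 1 of the 104 genes was called (0.376% and 0.291% of all genes). Without the siCAG library of 24 h 52 were called, with 31.5% of all genes, and without that of 48 h 28, with 32.9% of all genes. DESeq2 called 34, 17 in each direction, and of all genes 8.3% higher and 10.9% lower. Some large differences did not pass. SPP1, the secreted phosphoprotein osteopontin, held 771 and 903 counts with siNT1 and 1927 and 5421 with siCAG (log2 fold change 2.04, SE 0.542, adjusted p = 0.0663), and TNFRSF11B held 1014 and 901 against 1530 and 7060, where the 48 h library carried most of the difference. TMEM71 held 548 and 283 counts with siNT1 and 559 and 14 with siCAG, and LINC00707 417 and 311 against 163 and 17. The comparisons of siGGGGGC and of siCAG share the siNT1 libraries.

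**Figure D5:**
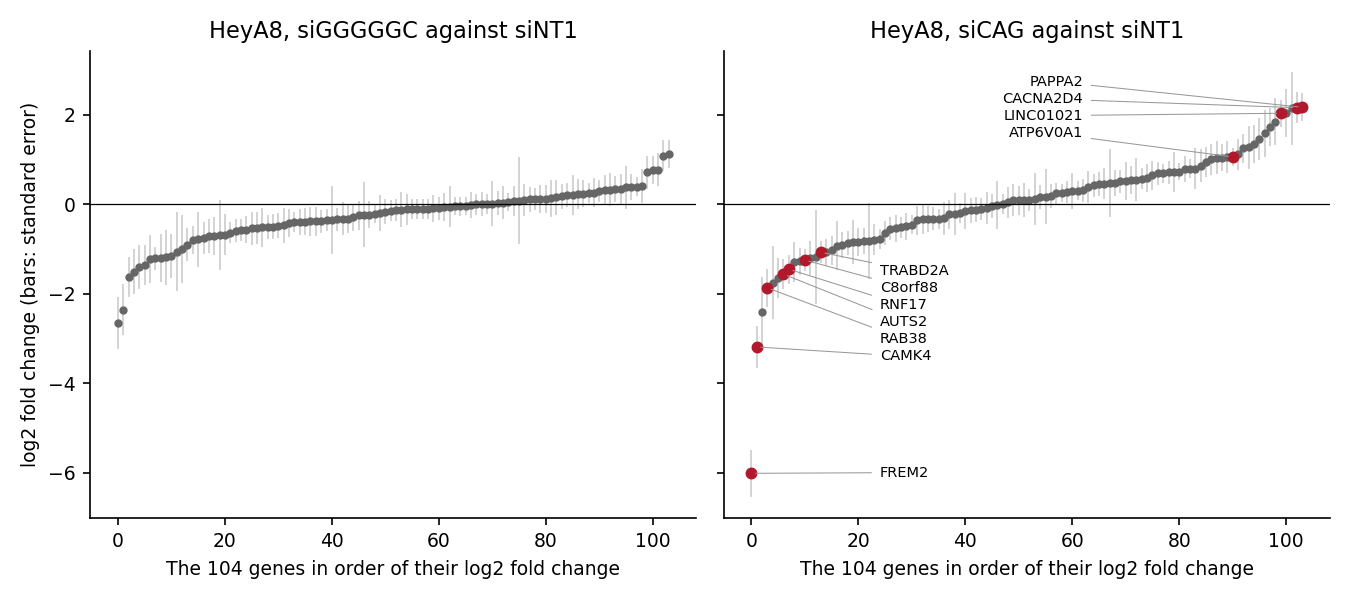
log2 fold change against siNT1 in HeyA8 for the 104 genes, each panel in its own order (points: edgeR estimates; bars: standard error; red and named: adjusted p under 0.05). No gene is red with siGGGGGC, and 11 are with siCAG, from FREM2 at -6.02 to PAPPA2 at 2.17.

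The transfected HeyA8 libraries were also compared between 24 and 48 h. With siRNA as a term, edgeR called none of the 104 genes and 0.0% of all genes, and DESeq2 called 0 of the 104. An unadjusted p under 0.05 was found for 14 of the 104 and for 4.53% of all genes. Without the siCAG libraries 6 genes were called lower at 48 h (0.631% of all genes), namely DDIT4L, TGFBI, TRIM55, TNS1, GDA and ACOT11. TGFBI held 3693 and 1266 counts with siNT1 (24 and 48 h), 4415 and 1801 with siGGGGGC and 5299 and 4122 with siCAG, and TNS1 held 3406 and 1875, 2971 and 810, and 4360 and 1813. Of the 104 genes, 67 kept 200 or more counts in all 8 HeyA8 libraries.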

How the data were processed

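Total RNA of PC3 and HeyA8 cells was sequenced after ribosomal depletion. Per the labels and the study's methods the authors aligned reads to hg38 (STAR or TopHat are named) and ran HTSeq on the alignments, and the deposited values are raw counts per gene symbol. Whether counting used strand was not given in the sources used here. The labels give 1 nM siRNA and the methods a higher dose.

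The members and gene lists were chosen with earlier results of these data known. Counts were tested with edgeR 4.0.16 (quasi-likelihood, TMM, filterByExpr, Benjamini-Hochberg over all genes, adjusted p under 0.05), siRNA comparisons over all 8 libraries of a line with time point as a term, and with DESeq2 1.42.0 as an alternative. When 1 library was left out of an siRNA comparison, its group kept 1 library and the spread came from the other groups. The fits over all 8 libraries of a line include the mock libraries that the rule had used, so their spread is not independent of the choice of genes. Per-time differences used log2 CPM with 0.5 counts added, over TMM library sizes for the 104 genes and over library totals for the background of all genes. Gene lengths and 3′ UTRs came from GENCODE v44, since the deposited length column was 0.0465 to 6.77 times the merged exon length for these genes. Symbols matched for 103 of 104. The genes named are the 12 highest in mock HeyA8, the 10 highest without a PC3 count, those in runs, the 10 with the highest PC3 siRNA count, the 5 largest and 5 smallest called changes per comparison, those next to the cuts and list members. Other genes described, such as SPP1, TMEM71, LINC00707, SHANK1, BAIAP2L2, C8orf88 and the 6 called lower at 48 h, were chosen after their values were seen.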

Additional observations from a re-analysis of the deposited data

Results flagged for a closer look

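For 4 of 42 pairs of a gene and an siRNA (21 genes tested in PC3, siGGGGGC and siCAG), the difference from siNT1 pointed one way at both time points in PC3 and the other way at both in HeyA8. This is 9.52% of the pairs, against 11.3% of the pairs of all 13263 genes with 10 or more counts in 2 libraries of each line, so the count is not above the background. The 2 shares differ in the filter and in scaling, by TMM library sizes for the 21 genes and by library totals for all genes. The difference between the lines was not tested, and the PC3 values rest on at most 42 counts. LOC100506314 averaged 0.72 on the log2 scale in PC3 and -0.77 in HeyA8 with siGGGGGC. TSHZ3 averaged 0.79 in PC3 and -0.53 in HeyA8 with siGGGGGC. TRABD2A averaged -0.55 in PC3 and 0.12 in HeyA8 with siGGGGGC. TRIM22 averaged -0.86 in PC3 and 1.67 in HeyA8 with siCAG. At 24 h TRIM22 had 3 counts in both PC3 libraries, so its sign there comes from the TMM library sizes alone. No group had the 4 libraries needed to look for a library far from its group.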

How the results depend on the processing

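The cuts set the number of genes: 199 passed at 100 or more and 20 or fewer, and 53 at 400 or more and 5 or fewer. Counting alternate contigs, chosen after seeing the data, gave 107. The median share of a transfected PC3 library on the genes was 17.5 CPM, and 60.1 with the looser cuts. The number of runs was 8 in each alternative, but with neighbours at 50 or more counts they held 16 of the genes instead of 17 and at most 2 in a run instead of 3, since GHDC then divides the one on chromosome 17. For PC3 siGGGGGC the calls among the genes numbered 1, with 3 without a filter (WNT5B, SV2A and ADAMTSL1; 8.96% of all genes called), 0 at 50 counts in 2 libraries, where 1 of the genes was left to test and WNT5B was not, 0 without the mock libraries (1.31% of all genes) and 0 to 3 when 1 library was left out (0 to 23.5% of all genes). For PC3 siCAG they numbered 0, and 1 with only the 4 libraries compared. For HeyA8 siGGGGGC they numbered 0, with 4 by DESeq2 and 20 with only the 4 libraries compared. For HeyA8 siCAG they numbered 11, with 34 by DESeq2, 4 without the mock libraries (1.67% of all genes) and 1 to 52 when 1 library was left out. For 48 against 24 h they numbered 0, and 0 to 6 when 1 siRNA was left out. The cause of these changes was not tested. Without the replicate block (time point, or siRNA for 48 against 24 h), PC3 siGGGGGC had 1 call (4.13% of all genes), HeyA8 siCAG 14 (8.56%) and the others 0. Calls between the lines are not counted, since the genes were chosen for that contrast. With the block, the spread behind each p is what remains after a shared effect of time. None of the 12 siRNA calls (WNT5B in PC3 and the 11 with siCAG in HeyA8) changed direction in these fits. Uncalled genes did, such as BMP2 with siCAG in HeyA8. At 27937092 to 29971612 counts a PC3 library, 83 of the 104 genes did not pass filterByExpr in PC3.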
